A study of Mus musculus with 6 samples.

Results

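The genes that take up and break down arginine, make nitric oxide from it and turn its product ornithine into polyamines were followed in cGAS-/- neutrophils with and without LPS. These 10 genes were chosen by function and found by symbol in the expression table, which holds 38739 genes. All 10 were among the 23049 genes with a value above 0 in at least 1 sample, which were the genes tested. The series has 6 RNA sequencing samples of peritoneal neutrophils from cGAS knockout mice of the strain given as C57B/L6, male and 8 weeks old per the study's methods. Of these, 3 were kept in medium (untreated) and 3 were given LPS, the outer membrane lipid of E. coli 026:B6, and both groups were incubated for 2 h. The LPS dose is 500 ng/mL in the labels and 100 ng/mL in the methods for the sequencing, and no source used here settles which. Both groups lack cGAS, the sensor of cytosolic DNA, and no wild-type sample was analysed here, so no value below shows an effect of the deletion. The cells were drawn from the peritoneum after thioglycollate and no further sorting is stated.

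Arginine enters myeloid cells mainly through cationic amino acid transporters, and its use divides between nitric oxide synthase, which releases nitric oxide and citrulline, and the arginases, which release urea and ornithine. Citrulline can be turned back into arginine by argininosuccinate synthase and lyase. Ornithine decarboxylase makes putrescine from ornithine, spermidine synthase extends putrescine with a group that S-adenosylmethionine decarboxylase supplies, and antizyme binds ornithine decarboxylase and sends it to the proteasome. In macrophages of mice, LPS is well known to switch on the inducible nitric oxide synthase, and in neutrophils arginase is best known as a granule enzyme of human cells.

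Sequences are shown for the polyamine genes because their products are controlled at translation as well as by transcript level, which a table of transcript abundance does not measure. The antizyme protein of Oaz1 is read only when ribosomes move forward by 1 base at the stop codon of a short first frame. In the reference genome GRCm39 this site lies at chr10:80664114-80664143 on the plus strand, in an exon of Oaz1, after 68 codons of the first frame, with the codon before the stop and the stop codon in capitals.
Oaz1 frameshift site: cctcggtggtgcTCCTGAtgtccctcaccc
The transcript of Amd1 carries a short upstream frame of 6 codons ahead of its coding sequence, which slows translation when polyamines are plentiful. It lies at chr10:40302152-40302178 on the minus strand of GRCm38.p6, the build of the RefSeq promoter table, with the frame from its start to its stop codon in capitals.
Amd1 upstream frame: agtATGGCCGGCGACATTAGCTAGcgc
Amd1 also has a near copy, Amd2. Over the part annotated as coding in a single transcript of Amd1, the pair differ at 2 of 1389 aligned bases. Reads from most of this length cannot be assigned to one of them alone. The stretches below, from exons of Amd1 at chr10:40166162-40166202 and of Amd2 at chr10:35586740-35586780, both on the minus strand of GRCm39, hold 1 of these differences, in capitals.
Amd1 coding stretch: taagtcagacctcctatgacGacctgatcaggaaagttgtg
Amd2 coding stretch: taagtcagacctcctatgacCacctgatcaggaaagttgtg

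The promoters of Odc1 and Oaz1 are shown because their transcripts lay on opposite sides of the untreated samples after LPS. The RefSeq table held a promoter for 4 of the 10 genes (Ass1, Odc1, Oaz1 and Amd1), and the 250 bases before the transcription start were searched on both strands for 4 motifs in all 32851 promoters of the table. The Odc1 promoter, chr12:17544623-17544872 on the plus strand of GRCm38.p6, held 4 copies of the GC box core GGGCGG, in capitals in either orientation.
Odc1 promoter: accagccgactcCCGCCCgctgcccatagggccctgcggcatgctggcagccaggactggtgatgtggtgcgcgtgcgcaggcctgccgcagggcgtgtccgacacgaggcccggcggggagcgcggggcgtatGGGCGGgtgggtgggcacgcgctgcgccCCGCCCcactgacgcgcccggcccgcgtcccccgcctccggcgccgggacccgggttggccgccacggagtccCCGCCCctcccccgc
The Oaz1 promoter, chr10:80826406-80826655 on the plus strand of the same build, held 1 CCAAT box, in capitals, and no GGGCGG.
Oaz1 promoter: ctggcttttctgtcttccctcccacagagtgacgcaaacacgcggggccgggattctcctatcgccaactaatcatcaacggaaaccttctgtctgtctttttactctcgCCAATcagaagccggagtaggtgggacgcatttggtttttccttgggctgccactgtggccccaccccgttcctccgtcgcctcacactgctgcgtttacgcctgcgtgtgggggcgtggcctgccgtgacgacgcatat
At least 1 GGGCGG was found in 32.7% of all promoters and CCAAT in 33.8%. The E box CACGTG, the motif that MYC family factors bind, was in 6.02% of promoters and, among the 4 genes, in Ass1 alone. The pattern GGGNNNNNCC, a loose form of the NF-kB site, was in 45.8% of promoters, with 6 matches in Ass1, 3 in Oaz1 and 1 each in Odc1 and Amd1. The motifs can overlap in places, and a match describes the letters of the window and not a bound factor.

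The unit of the table was the scaled TPM, that is Kallisto's length-corrected estimate of transcript abundance, as a mean over each gene's transcripts, multiplied by a factor particular to the sample. The read depth behind a value is unknown, and the spread among the 3 samples of a group is the measure of error. Because the number of transcripts averaged differs between genes, levels are compared between samples and not between genes. The sums of all values were 603599 to 713384 in untreated and 404675 to 465904 in LPS samples, and protein-coding genes made up 21.0 to 28.3% of the sum in untreated but 49.7 to 58.9% in LPS samples. Pseudogenes made up 63.5 to 67.9% of the sum in untreated and 31.7 to 38.8% in LPS samples. The 10 genes together held 0.0549 to 0.0764% of the sum in untreated and 0.130 to 0.175% in LPS samples. All 10 are protein-coding, so their share also moves with the protein-coding share and does not by itself show a rise of these genes. The transcript of the deleted gene, Cgas, was listed at 0.180 to 0.307 in untreated and 0.0286 to 0.184 in LPS samples. All 12 neutrophil markers in the table, of 14 listed, were above 0, with summed levels of 10330 to 28952 in untreated and 16998 to 52669 in LPS samples. Most of each sum came from S100a8 and S100a9, which overlapped between the groups. Cxcr2 lay lower in every LPS sample (log2 fold change -2.67, adjusted p = 0.0944, limma), as did Csf3r, Il1r2 and Ltf. Clec4d lay higher in every LPS sample, and the rest overlapped. Camp was lowest in sample 2 of untreated, and Il1r2 and Ltf in sample 2 of LPS. The sample numbered 2 had the highest neutrophil sum of its group in both groups. Its sum of 6 B cell markers was 282 in untreated and 264 in LPS, against means of 1080 and 768 in the other 2 samples of the group. Of these markers, Cd79b and Pax5 were not lowest in sample 2 of untreated. Fewer cells of a type and less RNA per cell cannot be told apart in such bulk samples.

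Of the 10 genes, 2 rose after LPS, the transporter gene Slc7a2 and the spermidine synthase gene Srm, and none fell, under the limits of the study's methods (limma, a log2 fold change over 2 in size with p under 0.01 before adjustment). Over all genes tested, 1.69% were called higher and 1.31% lower by these limits. At an adjusted p under 0.05 in the reported fit, 0 of the 10 genes passed, against 0.894% of all genes higher and 0.946% lower. At an unadjusted p under 0.05, 4 were higher and 2 lower, against 10.3% and 6.66% of all genes. In 4 genes (Slc7a2, Arg2, Odc1 and Srm) every LPS sample lay above every untreated sample, and in 2 (Asl and Oaz1) every LPS sample lay below. The groups were apart in this way in 13.1% of all genes upwards and in 9.75% downwards. The median log2 fold change was 0.93 over the 10 genes and 0.013 over all genes tested. Among the 9403 genes with a mean of 1 or more, as all of the 10 but Arg1 had, 4.14% were called higher and 3.2% lower, and the groups were apart upwards in 19.1% and downwards in 15.2%. All fold changes are on the log2(value + 1) scale, on which a gene near 0 moves less than its ratio does.

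**Figure D1:**
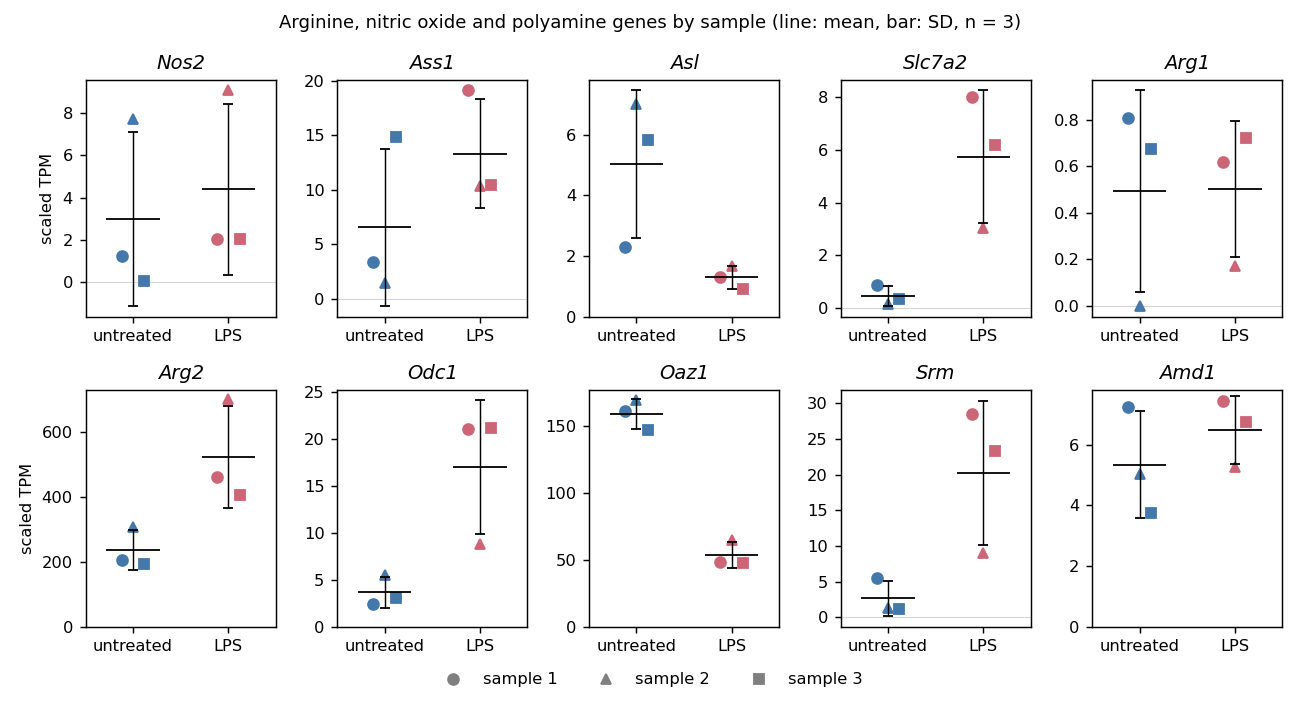
Scaled TPM (linear vertical axes, a scale for each gene) of the 10 genes in the 3 untreated (blue) and 3 LPS (red) samples, with sample numbers as symbols, the group mean as a line and the SD as a bar. The groups are apart upwards for Slc7a2, Arg2, Odc1 and Srm and downwards for Asl and Oaz1, and overlap for Nos2, Ass1, Arg1 and Amd1.

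Arginine uptake was represented by Slc7a2 (ENSMUSG00000031596, GRCm39 chr8:41315431-41375345, plus strand), which encodes the cationic amino acid transporter CAT2, the carrier that supplies arginine to inducible nitric oxide synthase in activated macrophages. Its level was 0.868, 0.155 and 0.353 in untreated samples 1 to 3, and 8.0, 3.04 and 6.19 in LPS samples 1 to 3. Every untreated sample was under 1 and every LPS sample above 3, and the groups did not overlap. The mean went from 0.459 ± 0.368 to 5.74 ± 2.51 (SD, n = 3 each), which is 12.5 times. Slc7a2 rose by a log2 fold change of 2.16 with a 95% interval from 1.13 to 3.19 (unadjusted p = 0.00208, adjusted p = 0.0668, limma). The rise was still called without both samples numbered 2, at 2.34. It lost the call without LPS sample 1, at 1.91, and without LPS sample 3, at 2.08 with an unadjusted p of 0.0139, and lay under the fold limit with median centring, at 1.96, and with protein-coding genes rescaled to a common sum, at 1.89. The sum of 6 dendritic cell markers also lay higher in every LPS sample (35.8 to 130, against 3.55 to 32.5 in untreated). In LPS samples most of it came from Ccr7, a receptor that activated cells of other types carry too. All other markers of that list overlapped between the groups, and Xcr1 had a lower mean in LPS (1.12) than in untreated (2.65). The sum of the 12 macrophage markers in the table, of 16 listed, overlapped between the groups (63.4 to 131 and 28.2 to 126), but single markers moved. C1qb, a complement subunit that macrophages make, was 2.85, 0.712 and 4.75 in untreated and 23.9, 17.3 and 18.0 in LPS samples and was called higher, by 2.62 on the log2 scale (adjusted p = 0.0642, limma). Cd5l also lay higher in every LPS sample, Mrc1, Cx3cr1 and Ccr2 lay lower in every LPS sample, and the other 7 overlapped, Mertk and Cd163 among them at under 0.2 in every sample. The part of other cells in the Slc7a2 value was not tested.

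Nitric oxide synthesis was represented by Nos2 (ENSMUSG00000020826, GRCm39 chr11:78811613-78851080, plus strand), the inducible nitric oxide synthase. Its level was 1.25, 7.70 and 0.0745 in untreated and 2.07, 9.07 and 2.06 in LPS samples. The sample numbered 2 was highest in both groups, and the untreated one lay above LPS samples 1 and 3. The means of 3.01 ± 4.11 and 4.4 ± 4.04 (SD, n = 3 each) differed by less than the spread within either group. The log2 difference of 0.72 (95% interval from -1.46 to 2.90, adjusted p = 0.669, limma) leaves room for a difference of over 2 as well as for a lower level. It was 0.044 without untreated sample 3, 0.15 without LPS sample 2 and 1.55 without untreated sample 2.

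Ass1 (ENSMUSG00000076441, GRCm39 chr2:31352181-31410862, plus strand) encodes argininosuccinate synthase, the rate-limiting step in remaking arginine from citrulline. It was 3.42, 1.49 and 14.8 in untreated and 19.1, 10.4 and 10.5 in LPS samples. Untreated sample 3 lay above LPS samples 2 and 3, and the other untreated samples lay below all of LPS. The log2 difference was 1.30 (95% interval from -0.46 to 3.07, adjusted p = 0.417, limma). Without untreated sample 3 it was 2.05 and was called higher, with an adjusted p of 0.115 (limma). Without untreated sample 2 it was 0.72, and with protein-coding genes rescaled it was 0.86.

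Asl (ENSMUSG00000025533, GRCm39 chr5:130040099-130058088, minus strand), argininosuccinate lyase, completes that cycle by releasing arginine. Its level was 2.28, 7.0 and 5.81 in untreated and 1.31, 1.67 and 0.916 in LPS samples. All LPS samples lay below the lowest untreated sample, at a mean of 1.30 ± 0.376 against 5.03 ± 2.45 (SD, n = 3 each), so untreated was 3.87 times higher. The log2 difference of -1.31 (95% interval from -2.36 to -0.25, unadjusted p = 0.0228, adjusted p = 0.198, limma) did not reach the limits.

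The arginases differed from each other in pattern. Arg1 (ENSMUSG00000019987, GRCm39 chr10:24791118-24803817, minus strand), the cytosolic arginase of liver and of alternatively activated macrophages, was 0.807, 0 and 0.675 in untreated and 0.617, 0.169 and 0.721 in LPS samples. Every sample was under 1, and the sample numbered 2 was lowest in both groups. The log2 difference was 0.03 (95% interval from -0.74 to 0.81, adjusted p = 0.962, limma), and its sign turned in 7 of the other settings tried.

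Arg2 (ENSMUSG00000021125, GRCm39 chr12:79177524-79203075, plus strand), the mitochondrial arginase, was listed at 206, 306 and 193 in untreated and 461, 703 and 407 in LPS samples. The lowest LPS sample was above the highest untreated sample, and sample 2 was highest in both groups. The means were 235 ± 61.7 and 524 ± 158 (SD, n = 3 each), a ratio of 2.22. Its log2 difference of 1.14 (95% interval from 0.29 to 1.99, unadjusted p = 0.0169, adjusted p = 0.168, limma) stayed short of the fold limit, and no setting brought it past the limits. With protein-coding genes rescaled it was 0.64. Arg2 has a single transcript in GENCODE M39. Vti1b, a gene of vesicle fusion, and Gm48780, a long non-coding RNA, overlap it on the opposite strand, with means of 10.7 and 12.2 in untreated and 16.8 and 19.5 in LPS samples. The libraries were stranded, but whether the quantification used the strand is not given in the sources used here.

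**Figure D2:**
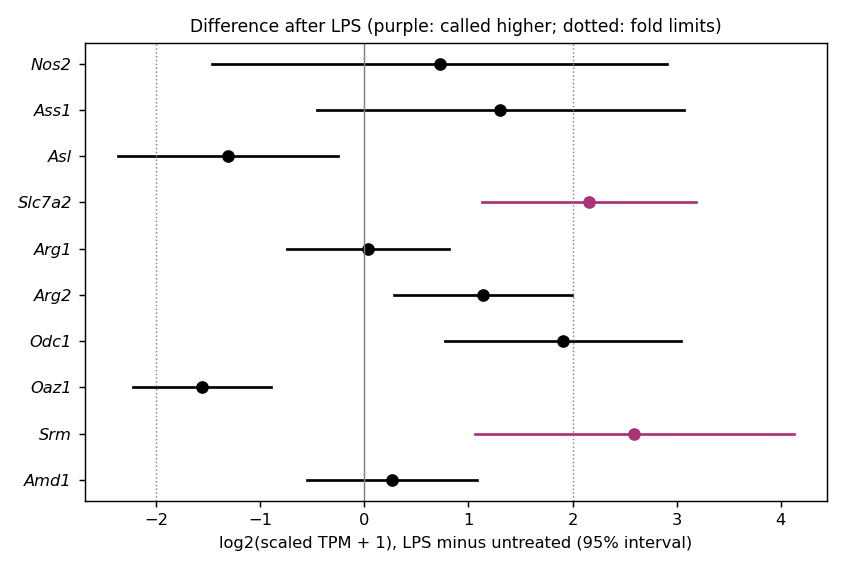
Difference of the log2(scaled TPM + 1) means, LPS minus untreated, of the 10 genes with the 95% interval from limma over 3 samples a group. Slc7a2 and Srm (purple) passed the limits, whose fold part is drawn as dotted lines at -2 and 2, and Odc1 at 1.91 lay just inside.

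Odc1 (ENSMUSG00000011179, GRCm39 chr12:17594383-17601507, plus strand) encodes ornithine decarboxylase, the rate-limiting enzyme of polyamine synthesis. It was 2.42, 5.51 and 3.10 in untreated and 21.1, 8.81 and 21.1 in LPS samples. The groups did not overlap, and the samples numbered 2 of each group were the closest pair. The means were 3.67 ± 1.62 and 17 ± 7.11 (SD, n = 3 each), a ratio of 4.63. The log2 fold change of 1.91 (95% interval from 0.77 to 3.04, unadjusted p = 0.00617, adjusted p = 0.105, limma) met the p limit and missed the fold limit. Without both samples numbered 2 it was 2.56 and passed, with an adjusted p of 0.0919 (limma). The p limit was missed without untreated sample 1 or 3 or LPS sample 1 or 3, at 1.71 to 1.84, with a replicate block, and with protein-coding genes rescaled, at 1.49. Of the copies of Odc1 in the table, 10 align over at least 300 bases, and together they held 0.142 to 2.02 in a sample.

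Oaz1 (ENSMUSG00000035242, GRCm39 chr10:80662516-80665124, plus strand) encodes antizyme 1, whose frameshift site is printed above. Its level was 161, 169 and 147 in untreated and 48.7, 65.1 and 47.4 in LPS samples. The groups were far apart beside their spread, at 159 ± 11.4 and 53.7 ± 9.86 (SD, n = 3 each), with untreated 2.96 times higher. The log2 fold change of -1.56 (95% interval from -2.22 to -0.90) had the smallest p of the 10 genes (unadjusted p = 0.00116, adjusted p = 0.0534, limma), and its size was under the fold limit. When protein-coding genes alone were used and rescaled to a common sum, Oaz1 fell by 2.06 on the log2 scale and was called lower (adjusted p = 0.0381, limma). The frameshift itself, and so the amount of antizyme, was not measured.

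Srm (ENSMUSG00000006442, GRCm39 chr4:148675940-148681792, plus strand), spermidine synthase, was 5.53, 1.34 and 1.14 in untreated and 28.5, 8.97 and 23.3 in LPS samples. The lowest LPS sample, number 2, was above the highest untreated sample, number 1. The mean was 2.67 ± 2.48 in untreated and 20.3 ± 10.1 in LPS samples (SD, n = 3 each), a ratio of 7.59. Srm rose by a log2 fold change of 2.59 (95% interval from 1.06 to 4.12, unadjusted p = 0.00598, adjusted p = 0.104, limma). The fold change stayed over 2 without any single sample (2.29 to 3.11), but without untreated sample 2 or 3 or LPS sample 1 or 3 the p limit was missed. The adjusted p of limma was then 0.176, 0.194, 0.305 and 0.323 in that order. Without both samples numbered 2 the fold change was 2.84 at an unadjusted p of 0.0218 (limma), and the call was lost, as it was with protein-coding genes rescaled, at 2.20.

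Amd1 (ENSMUSG00000075232, GRCm39 chr10:40162797-40178185, minus strand), S-adenosylmethionine decarboxylase, was 7.25, 5.04 and 3.74 in untreated and 7.45, 5.27 and 6.75 in LPS samples. The groups overlapped, and the log2 difference was 0.27 (95% interval from -0.55 to 1.08, adjusted p = 0.674, limma). This interval leaves out a change past the fold limit and a fall of 1, but not a rise of 1. Its near copy Amd2 was at 1.57, 0.514 and 1.32 in untreated and 0.609, 0.343 and 1.58 in LPS samples, and how reads were divided between the pair is not known.

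Ratios of pairs of these genes within a sample do not depend on how the sample was scaled, and 5 were compared by an exact two-sided permutation test, which with 3 samples against 3 cannot go below p = 0.1. The ratio of Odc1 to its inhibitor Oaz1 was 0.0150, 0.0326 and 0.0211 in untreated and 0.433, 0.135 and 0.446 in LPS samples. It was 13.6 times higher after LPS (log2 difference 3.77), and the groups did not overlap (exact p = 0.1, adjusted over the 5 ratios 0.167). As Odc1 and Oaz1 were apart in opposite directions, this ratio had to be apart too. The ratio of Srm to Amd1, the enzymes that together make spermidine, was 0.763, 0.266 and 0.304 in untreated and 3.82, 1.70 and 3.46 in LPS samples. It was 7.11 times higher after LPS, again with no overlap (exact p = 0.1). The ratio of Ass1 to Asl, the successive steps of arginine remaking, was 1.5, 0.213 and 2.55 in untreated and 14.6, 6.23 and 11.4 in LPS samples. It was 10.7 times higher after LPS without overlap (exact p = 0.1). Srm and Asl were also apart on their own, while Amd1 and Ass1 overlapped between the groups. Each of these p values is the smallest the design allows.

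The ratio of Nos2 to Arg2, between the enzymes that compete for arginine, was 0.00604, 0.0252 and 0.000385 in untreated and 0.00450, 0.0129 and 0.00506 in LPS samples, so the groups overlapped (exact p = 0.9). The ratio of Arg2 to Arg1 was 256 and 287 in untreated samples 1 and 3, where Arg1 was above 0, and 747, 4155 and 564 in LPS samples. With 0.01 added to each value the groups overlapped (exact p = 1), and the outcome rested on untreated sample 2, in which Arg1 was listed at 0. Without that sample, the log2 difference was 2.13.

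**Figure D3:**
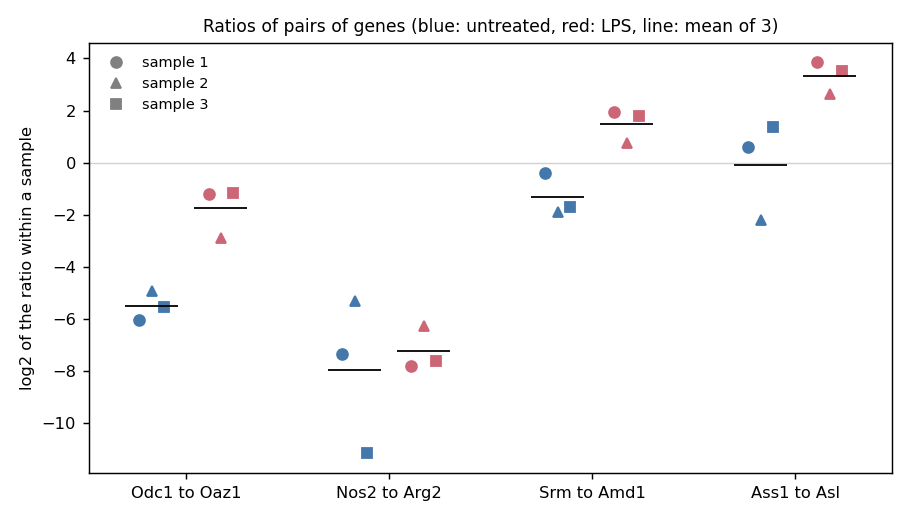
Log2 of 4 ratios of genes within a sample (vertical axis, 0.01 added to each value) in untreated (blue) and LPS (red) samples, with sample numbers as symbols and group means as lines. The groups are apart for Odc1 to Oaz1, Srm to Amd1 and Ass1 to Asl and overlap for Nos2 to Arg2.

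Differences between samples of the same group were large for several of these genes, and many followed the sample numbered 2. Nos2, Asl, Arg2 and Oaz1 were highest in sample 2 in both groups, and Ass1, Slc7a2 and Arg1 were lowest. Of all genes with a mean of 1 or more, 17.4% were highest and 19.5% lowest in sample 2 of both groups. Nos2 in sample 2 was 11.7 times the mean of the other 2 samples in untreated and 4.39 times in LPS. Arg2 was 1.53 and 1.62 times, and Oaz1 1.10 and 1.35 times. The neutrophil marker sum was 2.78 and 2.86 times that of the other samples. In the other direction, Slc7a2 was 3.94 times higher in the other samples than in sample 2 in untreated and 2.34 times in LPS, and Ass1 was 6.11 and 1.42 times higher. For the B cell marker sum the same ratios were 3.84 and 2.91, and for the macrophage sum 3.84 and 1.81. Single markers did not all follow their sum. Cd79b and Pax5 of the B cell list were not lowest in untreated sample 2. Of the macrophage list, Apoe, C1qb, Mrc1 and Cd5l were lowest in untreated sample 2. Mertk, Cd163, Timd4 and Cx3cr1 were highest there, and the rest lay between. Mertk and Cd163 were also highest in LPS sample 2. Apoe was the largest part of the macrophage sum in every sample. The erythroid cell or platelet marker sum was lowest in sample 2 and highest in sample 3 of both groups. It was 364, 23.2 and 5638 in untreated and 604, 170 and 4678 in LPS samples 1 to 3. Most of this sum came from the haemoglobin genes Hba-a1, Hba-a2, Hbb-bs and Hbb-bt. The platelet markers of the list differed from it. Pf4 and Ppbp were highest in LPS sample 1, and Itga2b was lowest in sample 1 of both groups. The part of the cell makeup in these genes was not tested. Odc1 was 2.00 times the mean of the others in untreated sample 2, while in LPS the other samples were 2.40 times higher than sample 2.

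**Figure D4:**
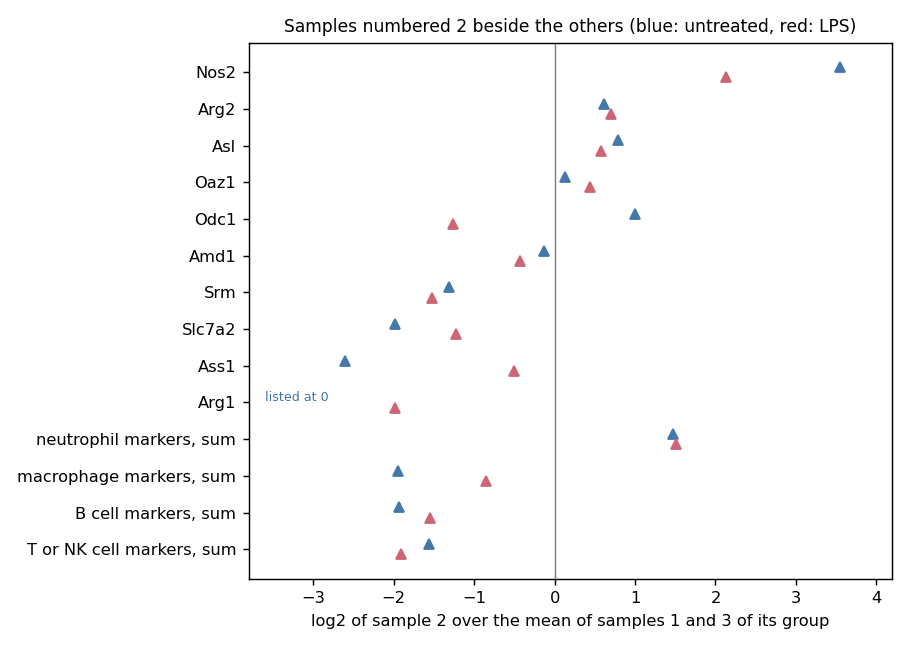
Log2 of the level in sample 2 over the mean of samples 1 and 3 of its group (horizontal axis), for the 10 genes and 4 sums of cell type markers, in untreated (blue) and LPS (red). Nos2, Arg2, Asl, Oaz1 and the neutrophil sum lie to the right of 0 in both groups, and Ass1, Slc7a2 and the macrophage, B cell and T or NK cell sums to the left, while Arg1 was listed at 0 in untreated sample 2.

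Around these 10 genes, 5 lists of 97 further genes of the same pathways were examined, of which 73 were in the table and 68 were tested. Only Slc7a5 was called higher and none was called lower, against 1.69% and 1.31% of all genes. Of the 68 genes, 6 were higher and 1 lower at an unadjusted p under 0.05, against 10.3% and 6.66% of all genes, and the median log2 fold change was 0.096. Among them, the groups were apart upwards in 10 genes and downwards in 4, against 13.1% and 9.75% of all genes. Slc7a5, the LAT1 carrier of leucine and other large neutral amino acids, was 1.70, 0.736 and 1.85 in untreated and 25.6, 10.5 and 26.7 in LPS samples. It rose by a log2 fold change of 3.10 (adjusted p = 0.0387, limma), with no overlap, and the ratio of the means was 14.7.

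In the list on arginine and large amino acid transport, 8 genes were tested and Slc7a5 was the 1 called. Slc7a1, which encodes the housekeeping carrier CAT1, was 4.21, 0.348 and 0.580 in untreated and 5.88, 1.82 and 5.59 in LPS samples (log2 difference 1.18, adjusted p = 0.425, limma), with untreated sample 1 inside the LPS range. Slc7a6, which encodes the exchanger y+LAT2, was under 0.4 in every untreated sample and at 3.23, 1.06 and 3.01 in LPS (log2 difference 1.39, adjusted p = 0.140, limma), with no overlap. Castor1, the cytosolic arginine sensor of the mTORC1 pathway, ranged from 0.225 to 6.40 in untreated and from 1.26 to 4.07 in LPS samples.

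In the list on nitric oxide synthases, their cofactor and signalling, 0 of the 18 genes tested were called. The neuronal and endothelial synthase genes Nos1 and Nos3 were under 0.5 in every sample. Pts, an enzyme that makes the cofactor tetrahydrobiopterin, was 5.14, 23.8 and 4.19 in untreated and 24.2, 26.0 and 21.1 in LPS samples (log2 difference 1.42, adjusted p = 0.324, limma). Untreated sample 2 lay within the range of the LPS samples. Nosip, which encodes a protein that binds nitric oxide synthases, and Pcbd2, of cofactor recycling, overlapped between the groups.

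Of the list on the urea cycle, ornithine and proline, 9 genes were tested and 0 were called. Oat, which moves ornithine towards glutamate and proline, was 39.5, 1.72 and 4.68 in untreated and 17.9, 16.7 and 18.9 in LPS samples, so that untreated sample 1 alone was above LPS. Glul, glutamine synthetase, was within 2.63 to 7.08 in all samples.

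Of the 25 genes in the list on polyamines and methionine salvage, 20 were in the table and tested, and 0 were called. The genes Sms, Azin1, Sat1, Mat1a and Atp13a3 of this list were not in the table, so nothing is known of them here. Smox, spermine oxidase, which turns spermine back into spermidine, was 10.5, 49.1 and 11.9 in untreated and 40.4, 59.6 and 42.9 in LPS samples (log2 difference 1.30, adjusted p = 0.351, limma), with sample 2 highest in both groups. Eif5a, the translation factor that spermidine is used to modify, was 18.4, 5.22 and 13.2 in untreated and 32.6, 15.7 and 34.3 in LPS samples (log2 difference 1.18, adjusted p = 0.339, limma). Mat2a, which makes S-adenosylmethionine, overlapped between the groups at means of 6.34 and 10.1. In the list on protein arginine modification, 13 genes were tested and 0 were called. Padi4, the deiminase that citrullinates histones in extracellular traps, was 3.09, 35.9 and 1.11 in untreated and 4.84, 13.9 and 4.05 in LPS samples, with sample 2 highest in both groups and a log2 difference of 0.15 (adjusted p = 0.950, limma). Prmt1 and Prmt3, arginine methyltransferases, overlapped between the groups.

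For the genes with the most positive and the most negative log2 fold change of the 10, Srm and Oaz1, the 3 genes most like each over the 6 samples were listed by Pearson's r of log2 values among 9402 other genes with a mean of 1 or more. For Srm these were Poldip2, Trp53 and Mettl23, each with an r of 0.997 or 0.998. Trp53, which encodes the tumour suppressor p53, was 4.96, 2.11 and 1.94 in untreated and 13.6, 5.82 and 12.5 in LPS samples, with the same order of samples as Srm. For Oaz1 they were the predicted genes Gm18642 and Gm29013 and the gene Peg12. Gm18642 was 342, 342 and 298 in untreated and 55.5, 83.8 and 51.4 in LPS samples. Gm29013 was 4318, 4874 and 3389 in untreated and 3.90, 18.1 and 2.98 in LPS samples. Peg12 was 7.44, 7.85 and 6.87 in untreated and 0.717, 1.39 and 0.462 in LPS samples. With 6 samples in 2 groups that differ, values of r this high describe the shared group difference and the shared order within groups.

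**Figure D5:**
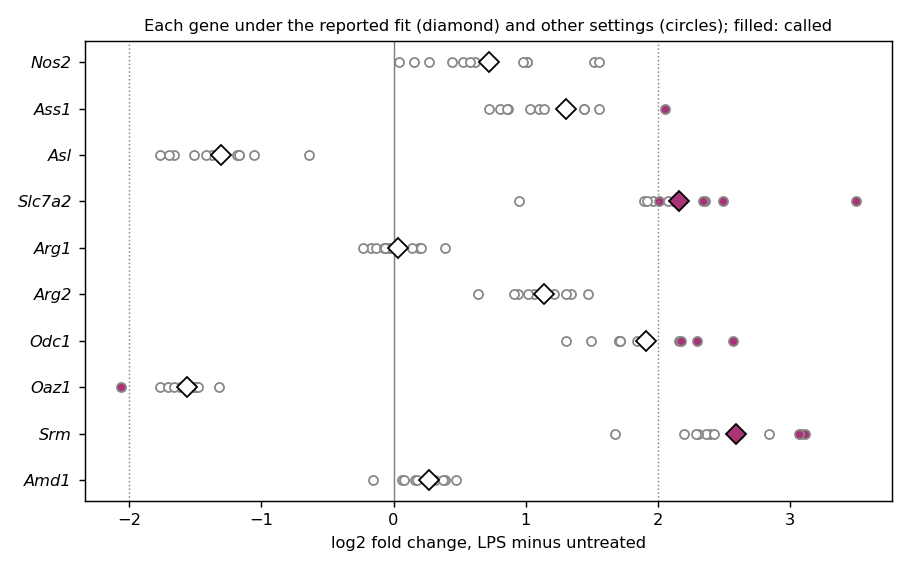
Log2 fold change, LPS minus untreated (horizontal axis), of each of the 10 genes in the reported fit (diamond) and under the other settings and left-out samples (circles), filled where the gene passed the limits of p and fold. Slc7a2, Srm, Odc1, Arg2, Ass1 and Nos2 lie above 0 and Oaz1 and Asl below 0 in every fit, Nos2 as low as 0.044, and filled symbols occur for Slc7a2, Srm, Odc1, Ass1 and Oaz1.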

How the data were processed

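RNA sequencing values of 3 untreated and 3 LPS samples were analysed, grouped by what their titles and labels say of treatment. Per the labels and the paper's methods, the authors used fastp, STAR (GRCm39; mm10 is also named) and Kallisto, normalized the result and tested it with limma-voom. The deposited values were read as TPM, as a mean over each gene's transcripts and scaled by a factor of the sample, whereas the table's name calls them normalized counts. In untreated sample 3, 51.4% of values have at most 6 digits, the precision of Kallisto's TPM, against 5.87 to 6.42% in the others. Read counts and depth are unknown, so tests on counts were not run. The transcript release and the strand setting of the quantification are not given in the sources used here. The labels do not say whether the samples of a group came from separate mice, so p-values measure the spread between these samples, which may be technical.

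The 10 genes and all lists were chosen with earlier results of these data known. Each of 23049 genes above 0 in at least 1 sample entered a two-sided limma fit (limma 3.58.1, R 4.3.3, lmFit and eBayes with a trend) on log2(value + 1), without covariates, with Benjamini-Hochberg adjustment over all of them. This stands in for the voom fit of the study, which needs counts. Named were the 10 genes, the called genes of 5 pathway lists and the 3 others with the highest mean per list, at most 3 near-identical copies per gene and the 3 genes most like the largest rise and fall. Outside this rule, Nos1, Nos3, Vti1b, Gm48780 and the cell type markers were named after their values were seen. The values of 1 gene that the rule names are not reported here. Copies were found with blastn 2.17.0, asking for 90% identity along 50% of the shorter transcript or more. Hits under 300 bases were left out of the sums. Of the genes in the table, 35599 were matched to GENCODE M39 by name and 983 by identifier, and 2157 were not matched. The fit was tested on simulated data. Ratios were compared by exact permutation tests in scipy 1.17.1. Alternatives were other limits, pseudocounts of 0.1 and 5, filters, quantile normalization, median centring, protein-coding genes rescaled, eBayes without a trend, a replicate block, and leaving out each sample. Leaving out both samples numbered 2 was chosen after seeing the data. Python 3.11.15, pandas 2.3.3 and matplotlib 3.10.9 were also used.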

Additional observations from a re-analysis of the deposited data

How the results depend on the processing

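Among the 12 settings and left-out samples that can move a fold change, 112 of 120 fold changes of the 10 genes kept their direction and 8 turned. With pseudocounts of 0.1 and 5, that of Slc7a2 was 3.49 and 0.95, that of Nos2 1.52 and 0.27, and that of Asl -1.77 and -0.64. The number of these genes called higher, 2 in the reported fit, was 0 at an adjusted p under 0.05, with or without a fold limit of 1, 0 with a pseudocount of 5, 0 with protein-coding genes rescaled (where 1 was called lower), and 1 with median centring or with genes at 0 kept. Slc7a2 was called in 11 and Srm in 8 of 16 fits at the reported limits, Odc1 in 4 and Ass1 in 1, and Oaz1 was called lower in 1. The adjusted p of limma went under 0.05 in few fits. With genes of a mean of 1 or more it was 0.0268 for Slc7a2, 0.0332 for Oaz1 and 0.0434 for Srm. Without a trend it was 0.0412 for Slc7a2 and 0.0107 for Oaz1. For Oaz1 it was also 0.0434 with genes at 0 kept and 0.0381 with protein-coding genes rescaled. In all other fits each of the 10 genes stayed above 0.05. The pathway genes called higher, 1 in the reported fit, were 4 with a pseudocount of 0.1, 0 with a pseudocount of 5 and 2 without both samples numbered 2. Leaving out a single sample gave 0 to 3 of the 10 genes higher, 1 to 2 pathway genes higher and 0 to 1 lower. The cause was not tested.

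The log2 difference of Arg1 turned to -0.047 with quantile normalization, -0.17 with median centring, -0.13 with protein-coding genes rescaled and -0.061 without both samples numbered 2, and ranged from -0.23 to 0.21 when single samples were left out. That of Amd1 turned to -0.16 with protein-coding genes rescaled. The difference of the log2 ratio of Arg2 to Arg1 turned to 1.11 with 1 added to each value and 1.26 without both samples numbered 2, and ranged from -1.33 to 2.13 without single samples. That of Nos2 to Arg2 turned to -0.42 with 1 added, and ranged from -0.89 to 2.03 without single samples.

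Median centring moved the median of all genes to -0.19 and the split of called genes from 389 higher and 301 lower to 310 higher and 414 lower. By the pseudocount, the genes called higher numbered 856 at 0.1 and 129 at 5, and the genes called lower 493 and 168. An adjusted p under 0.05 gave 206 higher and 218 lower, and protein-coding genes alone gave 148 and 124 of 12018. Without LPS sample 3 the counts were 238 and 241.

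Same-numbered samples of the groups deviated together with correlations of 0.0925 to 0.220, not all over 0.1, so the numbers were not taken to pair the samples, although each sample correlated best with its own number. With the replicate block, 387 genes were higher and 303 lower, and the same numbers of the 10 genes were called, Slc7a2 with an adjusted p of 0.126 and Srm with one of 0.132. The unadjusted p of limma went from 0.0169 to 0.00376 for Arg2 and from 0.449 to 0.164 for Nos2, but from 0.00617 to 0.0229 for Odc1. Their adjusted p with the block was 0.134, 0.492 and 0.246. For each number, Nos2 was higher in the LPS sample than in the untreated one. Depth, which would limit the low values of Arg1 and Slc7a2, is unknown.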
